A study of Homo sapiens with 6 samples.

Results

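The V-type ATPase is the proton pump of endosomes and lysosomes, and the RNAs described here are those of its subunits and of the lysosomal proteins that work at the pH it sets. A list of 37 named genes was used, drawn up with earlier results of these data known: 17 pump genes and 20 genes of lysosomal proteins, out of 60676 gene IDs in the count table. All 37 matched 1 ID each, and 36 had enough counts to be tested, 16 of the pump and 20 of the lysosomal proteins. RNA came from pulldowns with the FERRY complex fused to GST (GST-Ferry, 3 libraries) and with GST alone (GST, 3 libraries). FERRY is a protein complex that binds the GTPase RAB5 on early endosomes, while GST alone shows what the tag and the resin retain. In both groups the bait was bound to glutathione resin and kept with HEK 293 lysate for 1.5 h. HEK 293 is a widely used cell line derived from human embryonic kidney; the labels name no modification, and the cells grew in suspension. The count columns are headed control and sample, read here as GST and GST-Ferry from those words alone. Every value compares what the baits recovered from the same kind of lysate, not the level of an mRNA in the cell.

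The pump is built of a peripheral sector, V1, which hydrolyses ATP on the cytosolic side, and a membrane sector, V0, which carries protons into the lumen. V1 subunits are made in the cytosol, while most V0 subunits, the accessory proteins, the lysosomal membrane proteins and the hydrolases enter the endoplasmic reticulum and travel on from there. Many genes of this group carry E-box-like elements in their promoters that bind the transcription factor TFEB and its relatives, a network known as CLEAR.

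The sequence TCACGTG, read on either strand so that its reverse complement CACGTGA counts too, was searched in promoters of the RefSeq table (GRCh38.p14, 250 bases before to 50 after each start site). It was present for 8 of the 28 listed genes found in that table, 4 of 12 pump genes and 4 of 16 lysosomal genes, or 28.6%, against 4.49% of all 27305 genes there. The genes that held it were ATP6V0D1, ATP6V0E2, ATP6V0B, ATP6V1G1, LAMP1, CTSA, CTSD and GAA. Shown are 30-base stretches of the 2 pump genes whose RNA passed the test below and of 2 genes whose RNA did not, with TCACGTG in capitals. In ATP6V0D1, ATP6V1G1 and GAA the next base is an a, so CACGTGA overlaps the capitals there and ends in lower case. A match is a description of these letters and not a binding site, and the pulldown does not measure promoters.
ATP6V0D1 (chr16:67481199-67481228, minus strand): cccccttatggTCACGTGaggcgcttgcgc
ATP6V0E2 (chr7:149872884-149872913, plus strand): tcccttctgcaTCACGTGgggactgcgcct
ATP6V1G1 (chr9:114587699-114587728, plus strand): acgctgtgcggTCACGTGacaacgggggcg
GAA (chr17:80101493-80101522, plus strand): gggaggccgcgTCACGTGacccaccgcggc

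Library totals were 6532665, 2671831 and 2454538 counts in GST-Ferry 1, 2 and 3, against 9388865, 10466520 and 7390346 counts in GST 1, 2 and 3, so a listed mRNA rests on fewer reads with GST-Ferry. CPM are counts scaled to a common library total with TMM factors, and before those factors 3 counts were worth 0.459 to 1.22 CPM in GST-Ferry libraries and 0.287 to 0.406 CPM in GST libraries, a limit for counting error alone. All 7 markers fixed for HEK 293 (VIM, CDH2, KRT8, KRT18, NEFM, NEFL and PAX2) were detected well enough to be tested, and together took 1487, 2184 and 1778 CPM in GST-Ferry 1, 2 and 3, against 1012, 1185 and 1177 CPM in GST 1, 2 and 3; KRT18 passed the test (log2 fold change 1.18 ± 0.22 SE, adjusted p = 0.0427, edgeR). Of the 7 markers, 6 had a fold change above 0, and their median log2 fold change was 0.73, above the pump median of 0.33 given below. The part of these markers in the pump results was not tested. Of 9 markers of blood, liver, islet, muscle and endothelium, CD3E and HBB had no count in any library, and the 9 together took 0.583 to 7.13 CPM with GST-Ferry and 1.26 to 5.35 CPM with GST. Among the listed genes GST 3 stood apart from GST 1 and GST 2, as described below, and GST-Ferry 1 had the lowest pump levels of its group.

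Of the 16 tested pump mRNAs, 12 had a fold change above 0 (higher with GST-Ferry) and 2 passed the test, both higher: ATP6V0D1 and ATP6V0E2. Among all 15546 genes tested, 0.592% were called higher with GST-Ferry and 0.0322% were called lower at an adjusted p under 0.05 (quasi-likelihood test of edgeR, Benjamini-Hochberg adjusted). The median log2 fold change of the pump was 0.33, against -0.03 over all genes tested and 0.02 over the 12864 protein-coding ones. All 3 GST-Ferry libraries lay above all 3 GST libraries for 5 pump mRNAs and below them for 1, where 14.9% of all tested genes lay wholly above and 12.2% wholly below.

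ATP6V0D1 encodes the d subunit, which sits on the cytosolic face of V0 and couples it to the central stalk of V1. It had 39.9, 71.7 and 56.7 CPM in GST-Ferry 1, 2 and 3, against 22.9, 23.2 and 18.5 CPM in GST 1, 2 and 3. Every GST-Ferry library was above every GST library, and GST-Ferry 1 was the lowest of its group. The means were 56.1 ± 15.9 CPM with GST-Ferry and 21.5 ± 2.66 CPM with GST (SD, n = 3 each). The fitted log2 fold change was 1.36 ± 0.24, or 2.57-fold (SE, adjusted p = 0.042 by edgeR's quasi-likelihood test). The gene lies on chromosome 16 (67438014 to 67481237, minus strand, GRCh38), and no exon of another annotated gene overlaps its exons.

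ATP6V0E2 encodes an isoform of the small membrane-spanning e subunit of V0. It had 74.0, 91.1 and 95.7 CPM in GST-Ferry 1, 2 and 3, against 47.5, 40.1 and 38.9 CPM in GST 1, 2 and 3. The groups did not overlap, and the means were 86.9 ± 11.4 CPM with GST-Ferry and 42.2 ± 4.68 CPM with GST (SD, n = 3 each). The fitted log2 fold change was 1.04 ± 0.20, or 2.05-fold (SE, adjusted p = 0.0449 by edgeR's quasi-likelihood test). On chromosome 7 (149872968 to 149891204, plus strand, GRCh38) its exons share 864 bases with those of the antisense gene ATP6V0E2-AS1, which held 423 counts in all against 2157 for ATP6V0E2, and 466 bases on the same strand with AC092681.3, which held 1. Whether the counting used strand is not stated in the sources used here.

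Both calls lay close to the threshold. They were lost by edgeR with RLE size factors (adjusted p = 0.0518 for ATP6V0D1 and 0.0549 for ATP6V0E2) and with library sizes alone (0.0687 and 0.0746), by limma-voom (0.0576 for both), without GST-Ferry 2 (0.425 for both), without GST-Ferry 3 (0.409 and 0.411) and without GST 2 (0.0956 and 0.119). The call for ATP6V0E2 was also lost without GST 1 (adjusted p = 0.0508) and when the fit carried offsets for GC and length, which lowered its log2 fold change to 0.64 (adjusted p = 0.0858, edgeR), where ATP6V0D1 had 1.09 (adjusted p = 0.0303). Both calls were kept by DESeq2, with no filter, with a replicate block, with the bait genes removed, and without GST-Ferry 1 or GST 3. DESeq2 called 3.43% of all tested genes higher, and the fit without GST 3 called 4.45%.

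**Figure D1:**
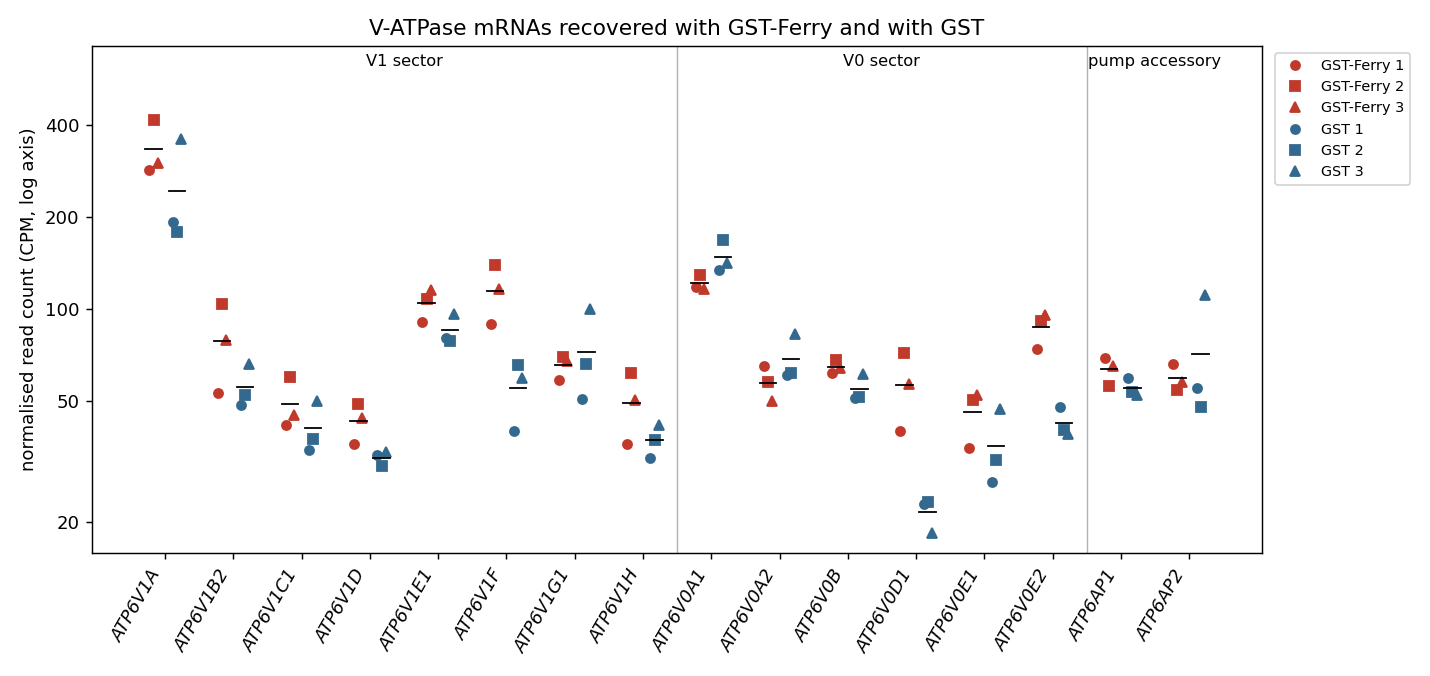
Normalised read count in CPM on a log axis for the 16 tested pump mRNAs, with GST-Ferry libraries in red and GST libraries in blue, 1 symbol per replicate number and a black bar at the mean. ATP6V0D1, ATP6V0E2, ATP6V1F, ATP6V1D and, by a small margin, ATP6V0B have all red points above all blue ones, and ATP6V0A1 has them below. GST 3 is the highest GST library for ATP6V1A, ATP6V1G1 and ATP6AP2, among others.

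The e subunit has a second gene, ATP6V0E1, whose mRNA did not pass the test. It had 35.0, 50.3 and 52.4 CPM in GST-Ferry 1, 2 and 3, against 27.2, 32.0 and 47.1 CPM in GST 1, 2 and 3, with overlap between the groups (log2 fold change 0.36 ± 0.25 SE, adjusted p = 0.448 by edgeR's quasi-likelihood test). The coding sequences below are those of the transcripts of equal length in GENCODE 29, 246 bases or 82 codons with the stop, and are shown because the paralogues gave different test results and could in principle share reads. Capitals mark the 77 bases that differ. Identity was 68.7%, the longest identical run was 11 bases, and GC content was 63.0% for ATP6V0E2 and 48.8% for ATP6V0E1. ATP6V0E2 also has annotated coding sequences of other lengths.
ATP6V0E2: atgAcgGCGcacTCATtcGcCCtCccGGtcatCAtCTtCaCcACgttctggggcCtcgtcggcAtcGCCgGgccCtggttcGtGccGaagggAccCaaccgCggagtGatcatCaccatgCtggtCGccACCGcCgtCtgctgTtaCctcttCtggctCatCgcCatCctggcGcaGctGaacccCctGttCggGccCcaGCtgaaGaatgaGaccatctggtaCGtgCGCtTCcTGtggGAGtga
ATP6V0E1: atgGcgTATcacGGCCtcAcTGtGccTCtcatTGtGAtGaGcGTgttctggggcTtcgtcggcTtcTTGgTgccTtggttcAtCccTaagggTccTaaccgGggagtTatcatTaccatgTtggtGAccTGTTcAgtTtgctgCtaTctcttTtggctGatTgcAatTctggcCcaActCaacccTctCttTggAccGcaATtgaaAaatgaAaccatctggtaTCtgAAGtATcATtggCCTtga

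Within each library the ratio of ATP6V0E2 to ATP6V0E1 counts does not depend on the scaling. Its log2 was 1.08, 0.85 and 0.87 in GST-Ferry 1, 2 and 3, against 0.80, 0.32 and -0.28 in GST 1, 2 and 3. The groups did not overlap, and the difference of the means was 0.65 ± 0.32 (SE). Only GST 3 had a negative value. GC content of the longest coding transcript was 62.2% for ATP6V0E2 and 44.1% for ATP6V0E1. In GST 3 their CPM were 0.887 and 1.59 times the mean of GST 1 and GST 2. The part of base composition in this ratio was not tested. The exact permutation test over the 6 libraries gave p = 0.1, the smallest that 3 against 3 libraries allow, and 0.25 when adjusted over the 5 pairs of genes compared in this way.

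The other V0 mRNAs did not pass the test. ATP6V0A1 and ATP6V0A2 encode isoforms of the large a subunit, which forms the proton path together with the proteolipid ring. ATP6V0A1 had 118, 129 and 116 CPM in GST-Ferry 1, 2 and 3, against 134, 168 and 141 CPM in GST 1, 2 and 3, the only pump mRNA with every GST-Ferry library below every GST library (log2 fold change -0.28 ± 0.19 SE, adjusted p = 0.425, edgeR). ATP6V0A2 had 64.8, 57.4 and 49.8 CPM with GST-Ferry, against 60.9, 61.7 and 82.8 CPM with GST, with overlap (-0.25 ± 0.21, adjusted p = 0.534). Their log2 ratio was 1.08 ± 0.19 with GST-Ferry and 1.12 ± 0.34 with GST (SD, n = 3 each; exact permutation p = 1).

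ATP6V0B and ATP6V0C encode proteolipids of the rotating ring, c'' and c. ATP6V0B had 61.5, 68.1 and 64.1 CPM in GST-Ferry 1, 2 and 3, against 51.1, 51.4 and 61.0 CPM in GST 1, 2 and 3. The groups did not overlap, by a small margin, and the log2 fold change was 0.24 ± 0.19 (SE, adjusted p = 0.497, edgeR). ATP6V0C held only 3, 2 and 2 counts in the GST-Ferry libraries and 3, 0 and 2 in the GST libraries, so it was not tested. Of its 1498 exonic bases, 862 are shared on the same strand with the annotated gene AC093525.2, which held 0 counts, and the 4 ATP6V0C pseudogenes held 15 counts in all. No source used here states how reads in shared exons were treated, so the 12 counts of ATP6V0C may not stand for its RNA. The log2 ratio of ATP6V0B to ATP6V0C rests on these counts (difference -1.95 ± 1.00 SE, exact permutation p = 0.1, adjusted 0.25).

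No V1 mRNA passed the test, although 7 of the 8 fold changes were above 0 and their median was 0.39 on the log2 scale. ATP6V1F, the small F subunit of the central stalk, came nearest. It had 89.1, 139 and 116 CPM in GST-Ferry 1, 2 and 3, against 39.8, 65.5 and 59.4 CPM in GST 1, 2 and 3. The groups did not overlap, and the log2 fold change was 1.06 ± 0.24 (SE, adjusted p = 0.0618 by edgeR's quasi-likelihood test; 0.0048 by DESeq2; 0.0761 by limma-voom). DESeq2 called 3.43% of all tested genes higher. Leaving out single libraries moved the log2 fold change between 0.85 and 1.22 and the edgeR adjusted p between 0.0125 (without GST 3, where 4.45% of all genes were called higher) and 0.425 (without GST-Ferry 2 or GST-Ferry 3), and with the offsets for GC content and length the adjusted p was 0.0416. Its 187 exonic bases shared with KCP, on the other strand, go with 249 counts for KCP in all and 2768 for ATP6V1F.

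ATP6V1D, also of the central stalk, had 36.1, 48.7 and 43.7 CPM in GST-Ferry 1, 2 and 3, against 33.2, 30.6 and 33.9 CPM in GST 1, 2 and 3, again without overlap (log2 fold change 0.39 ± 0.20 SE, adjusted p = 0.31, edgeR). Its exons share 269 bases with EIF2S1 on the other strand, which held 4844 counts against 1383. The catalytic A subunit ATP6V1A was the most abundant pump mRNA by CPM. It had 285, 414 and 299.6 CPM with GST-Ferry, against 193, 179 and 359 CPM with GST, so GST 3 lay above 2 of the GST-Ferry libraries (0.45 ± 0.27, adjusted p = 0.382). Its log2 fold change was 0.82 without GST 3 (adjusted p = 0.0216, edgeR), but 0.22 without GST-Ferry 2 (0.801), 0.25 without GST 2 (0.676) and 0.29 without GST 1 (0.599). ATP6V1A is named here after its values were seen, as is ATP6V1G1, the stator subunit that was the only V1 mRNA below 0 (-0.15 ± 0.25, adjusted p = 0.774) and had 99.8 CPM in GST 3 against 50.8 and 66.1 CPM in GST 1 and 2.

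ATP6V1C1 encodes the C subunit that links the stators to the membrane sector. Levels were 41.5, 59.8 and 45.0 CPM in GST-Ferry 1, 2 and 3, against 34.5, 37.5 and 49.8 CPM in GST 1, 2 and 3. The log2 fold change of ATP6V1C1 was 0.26 ± 0.22 (SE, adjusted p = 0.547, edgeR). The catalytic-head subunit ATP6V1B2 had 0.49 ± 0.25, the regulatory H subunit ATP6V1H 0.39 ± 0.23 and the stator subunit ATP6V1E1 0.30 ± 0.19, all as log2 fold changes with SE, and adjusted p-values ran from 0.296 to 0.425 in the same edgeR test. For these 4 mRNAs GST-Ferry 1 lay within the range of the GST libraries, while GST-Ferry 2 lay above it. Without GST-Ferry 2 the log2 fold change of ATP6V1B2 was 0.20 (adjusted p = 0.791, edgeR).

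The accessory proteins ATP6AP1 and ATP6AP2, which take part in assembling the pump, had fold changes of opposite sign. ATP6AP1 had 69.2, 55.8 and 64.9 CPM in GST-Ferry 1, 2 and 3, against 59.1, 53.2 and 52.3 CPM in GST 1, 2 and 3 (log2 fold change 0.21 ± 0.19 SE, adjusted p = 0.568, edgeR). ATP6AP2, also known as the prorenin receptor, had 65.8, 54.3 and 57.6 CPM with GST-Ferry, against 55.1, 47.5 and 110.5 CPM with GST (-0.25 ± 0.29, adjusted p = 0.66). Neither separated the baits, and the direction of ATP6AP2 turned to 0.19 without GST 3. The log2 ratio of ATP6AP1 to ATP6AP2 was 0.10 ± 0.07 with GST-Ferry and -0.27 ± 0.70 with GST (SD, n = 3 each; exact permutation p = 0.8).

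**Figure D2:**
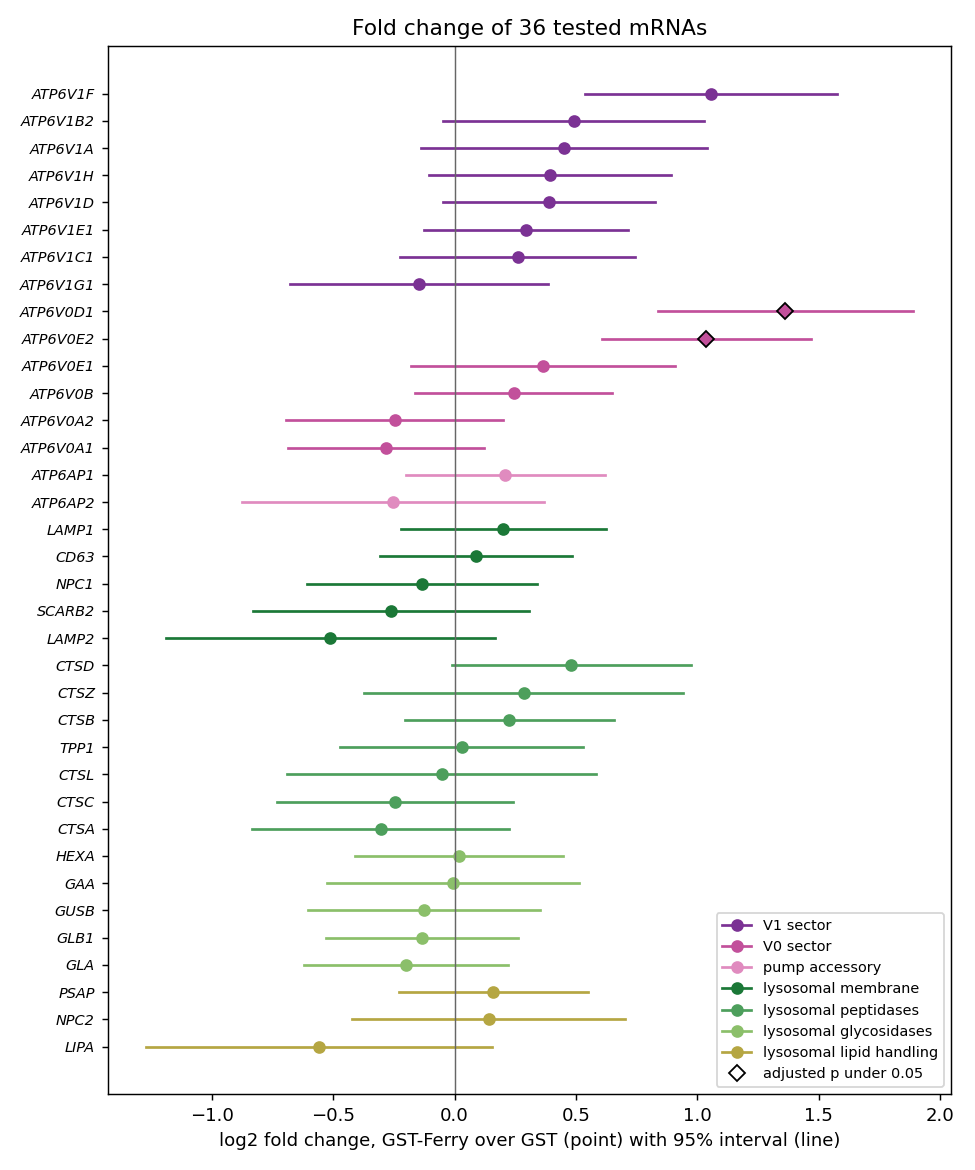
Log2 fold change of GST-Ferry over GST (points, from the edgeR fit) with its 95% interval (lines) for the 36 tested mRNAs, grouped by list, with diamonds for an adjusted p under 0.05. ATP6V0D1 at 1.36 and ATP6V0E2 at 1.04 are the only diamonds, 7 of the 8 V1 points lie right of 0, and the lysosomal points lie between -0.56 and 0.48.

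No lysosomal protein mRNA passed the test. Of 20 tested, 9 had a fold change above 0 and 11 below, the median log2 fold change was -0.03, and 0 were called in either direction by edgeR's quasi-likelihood test (0 also at an unadjusted p under 0.05, by DESeq2 and by limma-voom). All 20 fold changes were smaller than 0.6 in size on the log2 scale, and for 18 the 95% interval lay within 1 of 0, so a change of 2-fold lay outside it. A smaller change is not settled by these data. In simulated counts for the 15546 genes this test recovered 26 of 69 changes of 2-fold and 5 of 64 of 1.5-fold. The changed genes were drawn at random from all 15546, so these rates were not measured for the lysosomal mRNAs themselves. All GST-Ferry libraries lay above all GST libraries for 2 of the 20 and below them for 1, where 14.9% and 12.2% of all tested genes did so.

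Of the 5 membrane proteins, 2 had a fold change above 0. CD63, a tetraspanin of late endosomes and lysosomes, had 103, 105 and 103 CPM in GST-Ferry 1, 2 and 3, against 91.0, 93.8 and 108 CPM in GST 1, 2 and 3 (log2 fold change 0.09 ± 0.18 SE, adjusted p = 0.817, edgeR). LAMP1, an abundant glycoprotein of the lysosomal membrane, had 58.1, 52.3 and 57.2 CPM with GST-Ferry, against 55.4, 48.3 and 41.9 CPM with GST (0.20 ± 0.19, adjusted p = 0.595). Its relative LAMP2, which also serves chaperone-mediated autophagy, had 97.1, 68.9 and 69.7 CPM with GST-Ferry, against 82.4, 73.6 and 183 CPM with GST (-0.51 ± 0.31, adjusted p = 0.39). The groups overlapped for all 3 mRNAs, and GST 3 held the lowest LAMP1 and the highest LAMP2 level of the 6 libraries.

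The log2 ratio of LAMP1 to LAMP2 was therefore -2.12 in GST 3, against -0.57 and -0.61 in GST 1 and GST 2 and between -0.74 and -0.29 with GST-Ferry (difference of means 0.63 ± 0.53 SE, exact permutation p = 0.3, adjusted 0.5 over the 5 pairs). Without GST 3 the fold change of LAMP2 was 0.00 on the log2 scale. SCARB2, the receptor that carries beta-glucocerebrosidase to lysosomes, had 138, 113 and 105 CPM with GST-Ferry, against 115, 103 and 210.2 CPM with GST (-0.26 ± 0.26, adjusted p = 0.613, edgeR), and its sign turned without GST 3 (0.10). For NPC1, the cholesterol exporter of the lysosomal membrane, the log2 fold change was -0.13 ± 0.22 SE (adjusted p = 0.772, edgeR). NPC1 shares 604 exonic bases with RMC1 on the other strand, which held 1105 counts against 2833.

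Among the peptidases only the aspartic protease CTSD separated the groups. It had 18.9, 21.0 and 22.9 CPM in GST-Ferry 1, 2 and 3, against 16.6, 12.97 and 15.1 CPM in GST 1, 2 and 3 (log2 fold change 0.48 ± 0.23 SE, adjusted p = 0.269, edgeR). CTSD shares 1304 of 3126 exonic bases on the same strand with the annotated gene AC068580.4, which held 20 counts against 654 for CTSD, and how reads in the shared part were assigned is not known. The cysteine cathepsin CTSL had 15.1, 18.6 and 20.4 CPM with GST-Ferry, against 20.7, 23.5 and 10.8 CPM with GST, with overlap (-0.05 ± 0.29, adjusted p = 0.937). CTSZ, a carboxypeptidase and the least abundant tested member, had 8.16, 5.94 and 7.79 CPM with GST-Ferry, against 7.06, 5.90 and 5.13 CPM with GST (0.29 ± 0.30, adjusted p = 0.636).

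The remaining peptidases had log2 fold changes, with SE, of 0.23 ± 0.20 for the cysteine protease CTSB, 0.03 ± 0.23 for tripeptidyl peptidase TPP1, -0.25 ± 0.23 for the dipeptidyl peptidase CTSC and -0.30 ± 0.25 for CTSA, the carboxypeptidase that protects beta-galactosidase. Their adjusted p-values ran from 0.516 to 0.958 in the same edgeR test. CTSA had the tightest GST-Ferry group of the 4, at 31.1 ± 0.694 CPM, against 38.3 ± 11.7 CPM with GST (SD, n = 3 each). TPP1 shares 756 exonic bases on the same strand with AC091564.7, which held 0 counts. CTSA shares 1038 with NEURL2 on the other strand, which held 92 counts against 1494.

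Glycosidases strip sugars from glycoproteins, glycolipids and glycogen, and 4 of the 5 fold changes were below 0 (median -0.13 on the log2 scale). GLB1 (beta-galactosidase) had 55.3, 53.5 and 55.0 CPM in GST-Ferry 1, 2 and 3, against 58.5, 57.9 and 63.3 CPM in GST 1, 2 and 3. The groups were tight and did not overlap, but the log2 fold change was small at -0.13 ± 0.18 (SE, adjusted p = 0.723, edgeR). TMPPE, which lies on the same strand and shares 83 exonic bases, held 601 counts against 2317 for GLB1. GLA, the alpha-galactosidase, had 54.0, 58.6 and 61.9 CPM with GST-Ferry, against 56.6, 73.7 and 69.9 CPM with GST (-0.20 ± 0.19, adjusted p = 0.596).

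HEXA, the alpha subunit of beta-hexosaminidase, had 66.4, 74.5 and 61.1 CPM with GST-Ferry, against 55.6, 73.1 and 70.5 CPM with GST (0.02 ± 0.20, adjusted p = 0.968, edgeR). HEXA shares 617 exonic bases on the same strand with AC009690.1, which held 2 counts against 2647. The glycogen-degrading GAA had a log2 fold change of -0.01 ± 0.24 and the beta-glucuronidase GUSB of -0.13 ± 0.22 (adjusted p = 0.992 and 0.785, edgeR). The 12 GUSB pseudogenes in the annotation held 2747 counts in all, against 2709 for GUSB, so the split of reads between them is uncertain.

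Of the proteins that handle lipids, PSAP, the precursor of the saposins that present lipids to the hydrolases, was the most abundant lysosomal mRNA. It had 239, 223 and 255 CPM in GST-Ferry 1, 2 and 3, against 218, 204 and 219 CPM in GST 1, 2 and 3, without overlap and by a small margin (log2 fold change 0.16 ± 0.18 SE, adjusted p = 0.657, edgeR). LIPA, the acid lipase, had 42.1, 28.5 and 33.8 CPM with GST-Ferry, against 35.4, 34.7 and 86.1 CPM with GST (-0.56 ± 0.33, adjusted p = 0.372). Its low fold change came with 1 high library, GST 3, without which it was close to 0 (-0.01). For NPC2, which hands cholesterol to NPC1, it was 0.14 ± 0.26 SE (adjusted p = 0.8, edgeR).

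**Figure D3:**
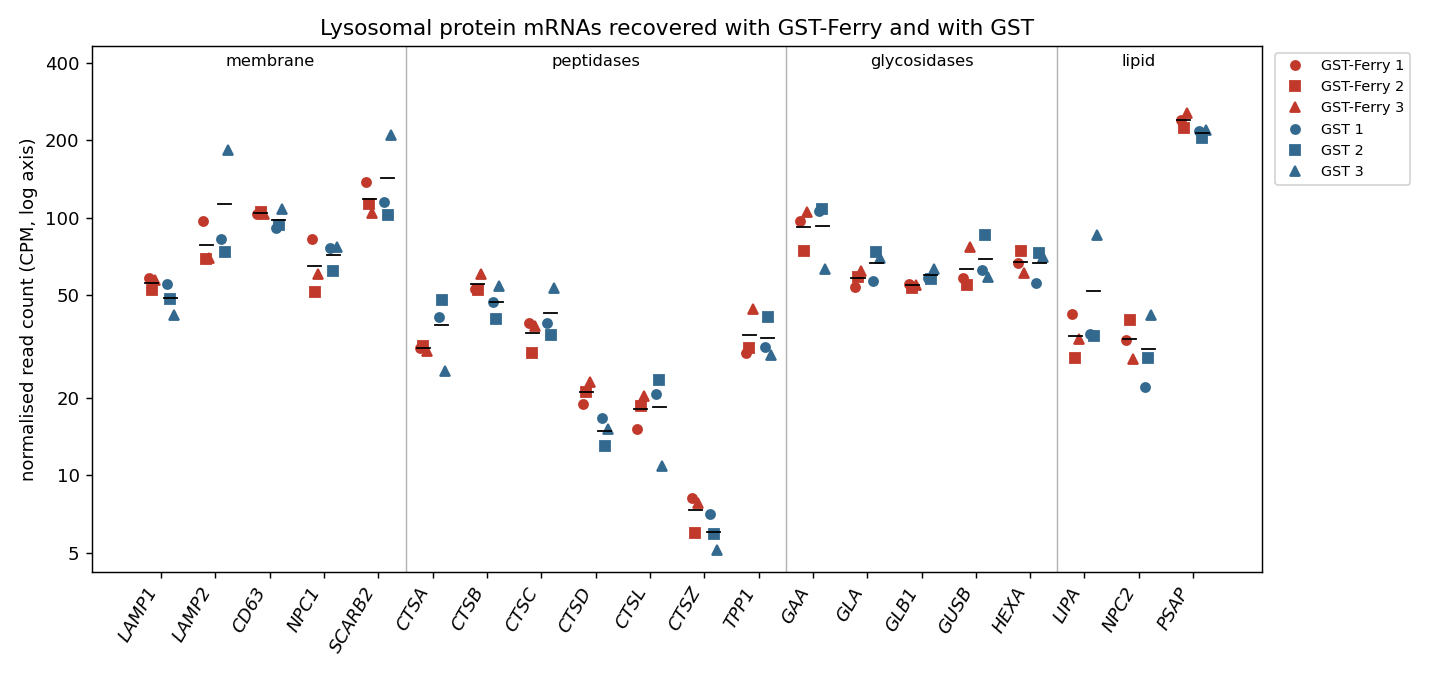
Normalised read count in CPM on a log axis for the 20 lysosomal mRNAs, with GST-Ferry libraries in red and GST libraries in blue, 1 symbol per replicate number and a black bar at the mean. Red and blue points overlap for 17 of the 20, and GST 3 (blue triangle) lies far above the other GST libraries for LAMP2, SCARB2 and LIPA.

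Per kilobase of annotated exon the recovered mRNAs spanned a wide range. With GST-Ferry the highest levels were those of ATP6V1F at 145 ± 31.4, PSAP at 73.8 ± 4.95, ATP6V1A at 64.9 ± 13.7 and ATP6V1G1 at 50.0 ± 4.53 RPKM (CPM per kilobase; SD, n = 3 each). With GST the same 4 led, at 69.6 ± 17.03 RPKM for ATP6V1F, 66.0 ± 2.54 for PSAP, 55.4 ± 19.2 for ATP6V1G1 and 47.5 ± 19.5 for ATP6V1A, and these neighbours did not differ beyond their spread, while with GST-Ferry ATP6V1F stood above PSAP by more than the spread. At the low end of the tested members stood CTSC, with 3.12 ± 0.45 RPKM with GST-Ferry and 3.72 ± 0.844 with GST, and CTSZ, with 3.58 ± 0.583 and 2.96 ± 0.478. ATP6V0D1 had 6.83 ± 1.94 RPKM with GST-Ferry and 2.62 ± 0.324 RPKM with GST, the lowest level of a tested member there. The lengths count every annotated exon of a gene, so a gene with many unused exons has its level understated.

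Each list can also be followed by library. The mean log2 CPM of the tested pump mRNAs, relative to the GST mean, was 0.18, 0.52 and 0.38 in GST-Ferry 1, 2 and 3, against -0.15, -0.07 and 0.22 in GST 1, 2 and 3. The groups overlapped through GST-Ferry 1 and GST 3. For the lysosomal mRNAs it was 0.02, -0.11 and 0.02 with GST-Ferry, against -0.05, -0.02 and 0.07 with GST. The difference between the lists was not tested. The median log2 fold change of the pump was 0.39 without GST 3 and 0.21 without GST-Ferry 2.

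**Figure D4:**
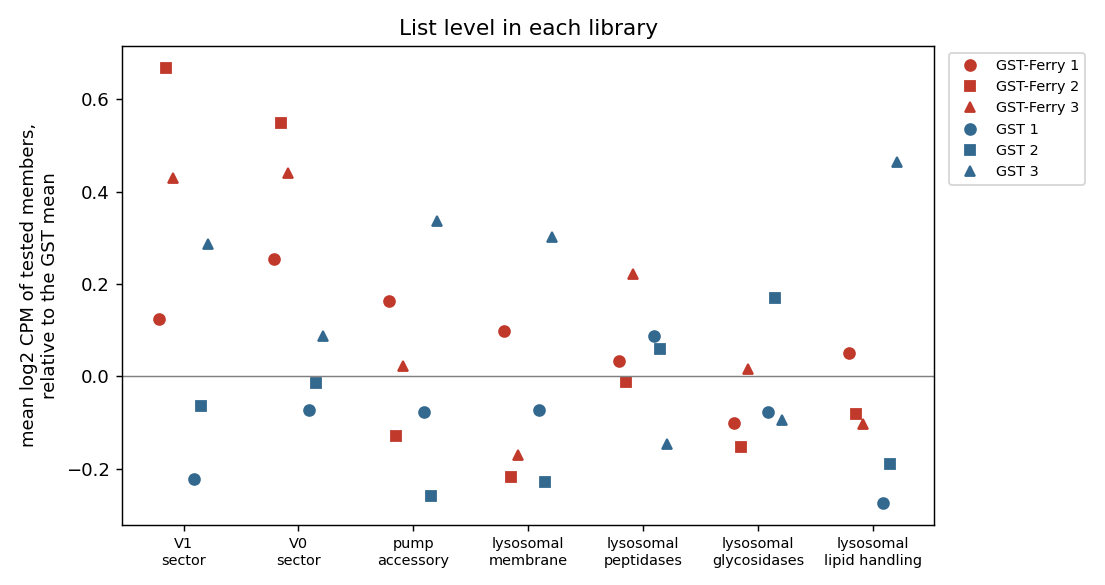
Mean log2 CPM of the tested members of each list, relative to the mean of the GST libraries, with GST-Ferry libraries in red and GST libraries in blue. In the V0 sector all red points lie above all blue ones, in the V1 sector GST 3 lies above GST-Ferry 1, and in the 4 lysosomal lists the colours mix. The V0 sector has 6 tested members, of which 2 were called higher and 2 had fold changes below 0.

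Among the GST libraries, levels in GST 3 varied with the base composition of the transcripts. LIPA was 2.45 times, LAMP2 2.34 times, ATP6AP2 2.15 times, ATP6V1A 1.93 times and SCARB2 1.93 times as high in GST 3 as in the mean of GST 1 and GST 2, while CTSL was 0.491, CTSA 0.567 and GAA 0.587 times as high. Across the 36 tested members the ratio fell with the GC content of the longest coding transcript (Spearman's rho -0.85) and hardly followed its length (0.16). These are correlations across genes of the same 3 libraries, which are not independent replicates. With offsets for GC content and length in the fit, the pump median was 0.44, the lysosomal median was -0.07, and 2 pump mRNAs (ATP6V1F and ATP6V0D1) and no lysosomal mRNA were called, where 1.21% of all tested genes were called higher and 0.264% lower.

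**Figure D5:**
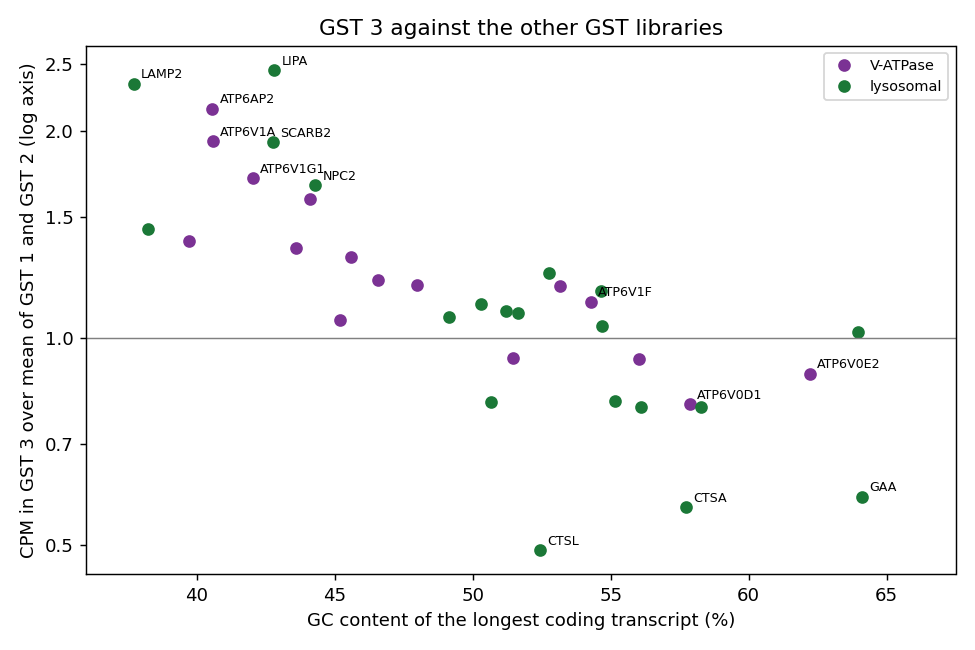
CPM in GST 3 over the mean of GST 1 and GST 2 (log axis) against the GC content of the longest coding transcript, for the 36 tested mRNAs, with pump genes in purple and lysosomal genes in green. The ratio exceeds 1.9 for 5 GC-poor transcripts, LIPA, LAMP2, ATP6AP2, ATP6V1A and SCARB2, and is below 0.6 for CTSL, CTSA and GAA.

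Sorted by where the protein is made, a division drawn after the values were seen and so given without a test, 8 of 9 mRNAs of cytosol-made subunits (V1 and ATP6V0D1) had fold changes above 0 (median 0.39 on the log2 scale). Of the 27 mRNAs whose products enter the endoplasmic reticulum, 13 had a fold change above 0 and the median was -0.01. The 7 pump mRNAs among these 27 had 4 above 0 and a median of 0.21, and the other 20 are the lysosomal genes. The median transcript length was 1845 bases for the cytosol-made and 2727 bases for the others, against 3559 bases over tested protein-coding genes and 1769 over the 91 of them called higher, and median GC content was 45.6% and 51.6%, against 48.5% and 57.9%. The part of transcript length or base composition in this division was not tested.

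Further genes of the pathway were taken from lists fixed by name, and none of their members passed edgeR's quasi-likelihood test. Of other pump subunit genes, mostly isoforms of particular tissues, 5 of 9 had enough counts to be tested and 2 had a fold change above 0. TCIRG1, the a3 isoform and the most abundant of these, had 11.2 ± 0.482 CPM with GST-Ferry and 10.8 ± 5.04 CPM with GST (SD, n = 3 each). Of the pump assembly and regulation genes, 3 of 11 tested were above 0. All GST-Ferry libraries lay below all GST libraries for 4 of these 11 and above them for 0, where 12.2% and 14.9% of all tested genes did so. DMXL1, a rabconnectin, had 133 ± 26.1 CPM with GST-Ferry and 181 ± 30.03 CPM with GST (log2 fold change -0.44 ± 0.21 SE, adjusted p = 0.279, edgeR).

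Other lysosomal enzymes had 14 of 35 tested members above 0 and a median log2 fold change of -0.08, near that of the 20 lysosomal mRNAs above. PPT1, the palmitoyl-protein thioesterase, had 84.2, 76.0 and 73.6 CPM in GST-Ferry 1, 2 and 3, against 68.9, 72.8 and 124 CPM in GST 1, 2 and 3, so only GST 3 lay above the GST-Ferry libraries. Other lysosomal membrane genes had 3 of 18 above 0 and a median of -0.24. The sialomucin CD164 had 175, 161 and 142 CPM in GST-Ferry 1, 2 and 3, against 154, 156 and 384 CPM in GST 1, 2 and 3. Only GST 3 lay above all GST-Ferry libraries, while GST 1 and GST 2 lay above GST-Ferry 3 alone. At an unadjusted p under 0.05 in the edgeR test 4 of these 18 were lower and 0 higher, where 1251 and 1755 of all 15546 genes were. All 4, named after their values were seen, had their highest level in GST 3, and LMBRD1 and TMEM106B overlapped between the groups while MFSD8 and SLC38A9 did not. DESeq2 called 1 of the 18 lower, MFSD8, and 1.14% of all tested genes lower. Hydrolase sorting genes had 3 of 9 above 0 (IGF2R, a mannose 6-phosphate receptor, 238 ± 19.9 CPM with GST-Ferry and 229 ± 13.7 CPM with GST), and the MiT/TFE factors had 2 of 3 (TFE3, 26.2 ± 2.36 and 20.8 ± 3.27 CPM). At that unadjusted threshold 1 pump assembly and 1 other enzyme gene were lower and none of the remaining lists had any, and neither DESeq2 nor limma-voom called a gene in them.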

How the data were processed

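RNA recovered in 6 pulldowns from HEK 293 lysate went through ribosomal RNA depletion and a strand-specific library kit, per the labels' protocols. The authors deposited 1 table of raw read counts per Ensembl gene. The submitters' processing notes list STAR 2.5.2b, bcl2fastq 2.19.1 and the build GRCh38.p13. The counting program, its annotation and its strand setting are not given in the sources used here. Per the file headers, columns are named control or sample with a number. Reading control as GST and sample as GST-Ferry with the same replicate numbers is an assumption from these words.

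Symbols, coordinates, exon lengths and transcripts came from GENCODE 29 (GRCh38). Genes passing edgeR's filterByExpr (minimum count 10, minimum total 15) were kept, 15546 in all, and scaled with TMM factors. CPM came from the deposited counts. All kept genes entered 1 two-sided edgeR quasi-likelihood fit without covariate (R 4.3.3 with edgeR 4.0.16), with p-values adjusted by Benjamini-Hochberg. Pair ratios used log2 of counts plus 0.5. Nothing in the labels says whether replicates are separate cultures; p-values therefore reflect the spread among these libraries alone, and that spread may be technical. Alternatives were RLE factors, library sizes alone, no filter on low counts, DESeq2 1.42.0, limma-voom (limma 3.58.1), a replicate block, removal of the 5 bait genes, GC and length offsets (natural splines, 4 degrees of freedom, for 99.3% of genes), a threshold of 0.1, and libraries left out.

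Members and lists were chosen with earlier results of these data known. Genes named with values in each library are those called, those whose groups do not overlap, the highest and lowest per length in each list, and the pairs. From the wider lists it is the most abundant gene. ATP6V1A and ATP6V1G1 were added after their values were seen. The procedure was tested on simulated data.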

Additional observations from a re-analysis of the deposited data

How the results depend on the processing

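The number of pump mRNAs called higher, 2 in the fit as reported, was 0 with RLE size factors, with library sizes alone and with limma-voom, 6 with GC and length offsets together with a replicate block, 10 without GST 3 and GST-Ferry 1 together, and from 0 to 4 when single libraries were left out (0 without GST-Ferry 2, GST-Ferry 3 or GST 2, 1 without GST 1, 4 without GST 3). GST 3 and GST-Ferry 1 are the libraries through which the groups overlap for the pump, so leaving out both raises its values by construction. The replicate block alone gave 3, as did DESeq2 and the fit with no filter, each time adding ATP6V1F to ATP6V0D1 and ATP6V0E2. With the bait genes removed it stayed at 2. ATP6V1F was also added at the threshold of 0.1 (adjusted p = 0.0618, edgeR). Over all 15546 genes tested, 92 were called higher and 5 lower in the fit as reported. The same genes gave 11 and 0 with RLE factors, 7 and 0 with library sizes alone, and 534 and 177 with DESeq2. They gave 14 and 0 with limma-voom, 167 and 28 with the block, and 188 and 41 with the offsets. Offsets and block together gave 820 and 374. Other fits tested other numbers of genes. With no filter 421 and 323 of 32648 were called. Without GST 3 and GST-Ferry 1 it was 1754 and 992 of 15242, and without GST 3 it was 701 and 558 of 15765. Same-numbered libraries deviated together weakly or not at all (correlations 0.25, 0.08 and -0.13). With 3 libraries per bait these values cannot show whether the number pairs them. Without GST-Ferry 2 the edgeR test called none of 16307 genes, 0 in each direction (at an unadjusted p under 0.05, 910 were higher and 794 lower; DESeq2 and limma-voom were not run without that library). Lysosomal mRNAs called lower numbered 1 (CTSA) with offsets and block together and 0 in every other fit run; none was called higher, and no pump mRNA was called lower. The pump median log2 fold change was 0.54 without GST 3 and GST-Ferry 1 and 0.213 to 0.455 with single libraries left out. The lysosomal median was -0.12 with library sizes alone and -0.154 to 0.0553 with single libraries left out.

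Small fold changes that turned sign are given on the log2 scale, and the cause was not tested. With GC and length offsets, without and then with a replicate block, they were ATP6V1G1 (0.102, 0.125), ATP6AP1 (-0.0108, -0.0121), ATP6AP2 (0.0306, 0.072), CD63 (-0.0904, -0.0642), CTSC (0.0731, 0.063), TPP1 (-0.0303, -0.0239), HEXA (-0.0519, -0.0302) and PSAP (-0.0362, -0.023). Without GST 3 and GST-Ferry 1 together they were ATP6V1G1 (0.231) and ATP6AP2 (0.124). With library sizes alone they were TPP1 (-0.0471) and HEXA (-0.0389), and with no filter TPP1 (-0.0281) and HEXA (-0.0353). GAA turned with limma-voom (0.0206) and with the replicate block (0.0164), and HEXA with RLE factors (-0.000199) and with DESeq2 (-0.000172). With single libraries left out, the ranges of those that turned were ATP6V1G1 -0.366 to 0.124, ATP6AP2 -0.494 to 0.19, LAMP2 -0.762 to 0.000894, SCARB2 -0.469 to 0.103, CTSL -0.353 to 0.143, TPP1 -0.187 to 0.172, GAA -0.244 to 0.101, GUSB -0.312 to 0.0407, HEXA -0.11 to 0.0755 and NPC2 -0.0719 to 0.398, and for the differences in log2 ratio ATP6V0A1 over ATP6V0A2 -0.204 to 0.132 and ATP6AP1 over ATP6AP2 -0.0379 to 0.583.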
